A study of Mus musculus with 2 samples.

Results

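Crowded Tcf1 peaks are listed Tcf1 peaks that lie within 10 kb of another listed peak. They were the autosomal peaks, on chromosomes 1 to 19, whose nearest other peak on the same chromosome was at 10000 bp or less, measured from edge to edge. This held for 387 of the 2667 autosomal peaks (14.5%) and left 2280 other autosomal peaks. The whole list held 2827 peaks. The distance to a neighbour chose these peaks, so their number and the size of their gaps are a description of the list and carry no test.

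The peaks came from chromatin immunoprecipitation followed by sequencing (ChIP-seq) of CD8 T cells from the spleens of wild-type C57BL/6 mice, purified by negative selection. One library was made with a rabbit antiserum raised against Tcf1, and its control with rabbit IgG, given in the labels as pre-immune rabbit serum. The authors' list gives a position in mm9 and a score for each peak of the Tcf1 library. The ages and the number of mice are not given in the sources used here, no genotype other than wild type was studied, and the read depth is unknown. With 1 library per serum no peak has a replicate check. Differences below are therefore between peaks of 1 list and carry no p-value, and the 95% intervals cover only the number of peaks, taken as independent, and not variation between mice.

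Tcf1, encoded by Tcf7, is an HMG-box transcription factor that binds the minor groove of DNA and bends it, and it works with beta-catenin in Wnt signalling and with Groucho family corepressors. T cells need it from their first steps in the thymus, and mature CD8 T cells keep it in the naive and memory states. Regulatory elements of T cell genes often come in groups over several kilobases, with separate sites for the same factor. Peaks that lie close together can also be parts of one bound region that a peak caller divided. Which genes or sequence motifs lie at the crowded peaks was not analysed here, because no genome or annotation of the mm9 build was used.

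Most crowded peaks came in pairs. The 387 peaks formed 174 runs, a run being a chain of peaks each at 10 kb or less from the next. Pairs made up 145 runs and held 290 of the crowded peaks (74.9%). Another 21 runs had 3 peaks, 6 had 4 and 2 had 5. The median run spanned 4627 bp, with the middle 50% between 1748 and 8456 bp. The median span was 3880 bp for pairs and 9964 bp for runs of 3. The longest run extended over 20030 bp, on chromosome 11. Peaks covered a median of 16.9% of the length of a run, so most of a typical run lay outside called peaks.

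The gaps inside runs leaned towards short distances. The 213 gaps had a median of 3168 bp (95% interval of the median 2363 to 4013 bp), with the middle 50% between 708 and 6229 bp. Gaps of up to 1 kb numbered 61 (28.6%), against 19 of over 1 and up to 2 kb. A further 60 gaps were over 2 and up to 5 kb, and 73 were over 5 and up to 10 kb, or 14.6 per kb of distance. Beyond the 10 kb limit, which the choice of peaks did not reach, the count fell to 9.8 per kb between 10 and 15 kb, 7.8 between 20 and 25 kb and 5.0 between 45 and 50 kb. Gaps were thus most frequent in the first kilobase and more frequent inside the 10 kb limit than in these bins beyond it.

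**Figure D1:**
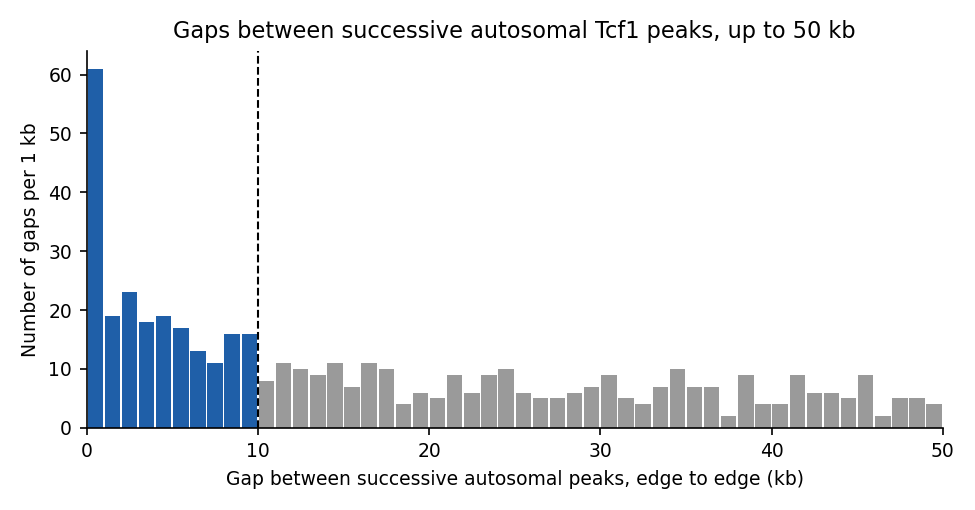
Number of gaps between successive autosomal Tcf1 peaks in each 1-kb bin of edge-to-edge distance, up to 50 kb; blue bins lie inside the 10 kb limit (dashed line) and grey bins outside it. The first bin holds 61 gaps and the next 19.

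The limit of 10 kb divided peaks with nearly equal distances. Just inside it were a pair on chromosome 4, at 63050002 to 63050340 and 63060340 to 63060813, with 9999 bp between them, and a peak on chromosome 3 at 100279017 to 100279203, 9955 bp from its neighbour. Just outside it were a peak on chromosome 1 at 93976679 to 93977119, at 10238 bp, and a pair on chromosome 16 at 10272 bp. The second peak of that pair, at 59469679 to 59470081, carried the highest score of the autosomal peaks, 45.69, and was outside the crowded group.

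Some neighbours almost touched. A gap of 200 bp or less separated 24 neighbours (11.3% of the gaps), and 9 of these gaps were 50 bp or less. The shortest was 8 bp, on chromosome 11, between peaks at 117733183 to 117733550 and 117733559 to 117734005 with scores of 12.31 and 9.15. On chromosome 5, peaks at 135500466 to 135500790 and 135500802 to 135501133 were 11 bp apart and scored 11.17 and 6.22. On chromosome 2, 14 bp lay between 113970596 to 113970989 and 113971004 to 113971505. In each of these pairs the first peak had the higher score, the last pair with 22.57 and 15.82.

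The other 7 of the 10 shortest gaps were 19 to 51 bp long. A pair on chromosome 2, at 76259444 to 76259661 and 76259681 to 76259917, had scores of 11.26 and 20.97. On chromosome 12, the peak at 29519102 to 29519540 scored 17.48 and its neighbour at 29519566 to 29519758 scored 10.90. On chromosome 17, a peak of 527 bp at 47007371 to 47007897 scored 25.70 and its neighbour of 255 bp, at 47007949 to 47008203, scored 12.17. The rest lay on chromosome 18 (28 bp, at 75537023 to 75537869, and 22 bp, at 3004791 to 3006011), chromosome 11 (30 bp, at 108781548 to 108782250) and chromosome 15 (49 bp, at 74915805 to 74917509). Joined end to end, the 24 neighbours of 200 bp or less covered a median of 743 bp, with a range of 474 to 2342 bp, and their midpoints were a median of 426.5 bp apart. The library fragments selected from the gel were 220 to 400 bp long, per the labels' protocols. Whether such neighbours are separate sites was not tested.

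The longest runs differed in how evenly they were spaced and scored. On chromosome 11, the run of 5 from 98978127 to 98998156 began with its highest peak, of score 22.28 and 374 bp, and continued with scores of 15.42, 8.90, 9.92 and 8.84. Its gaps were 8284, 5161, 158 and 4415 bp, so a tight pair lay between its more widely spaced peaks. The other run of 5, on chromosome 1 from 130497943 to 130511870, was low and even, with scores of 6.99, 9.70, 7.45, 9.60 and 9.14 and gaps of 899, 2900, 5753 and 2571 bp.

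Among the runs of 4, the highest scores were in the middle in both runs on chromosome 2 and in the run on chromosome 14. In the second of these runs along chromosome 2, the peaks between 113962527 and 113979269 scored 7.15, 22.57, 15.82 and 15.80. Its gaps were 7732, 14 and 7526 bp. The spacing of this run was nearly symmetric around its tight central pair. On chromosome 14, between 56903269 and 56915942, scores were 8.82, 13.61, 21.24 and 10.58, with gaps of 3185, 7895 and 403 bp. On chromosome 12, between 74694360 and 74706603, they were 8.98, 11.75, 6.18 and 15.54, with gaps of 4498, 6001 and 103 bp. In both of these runs the shortest gap joined the highest peak to the peak beside it.

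Lower scores were found in the remaining runs of 4. On chromosome 6, between 48668535 and 48683379, peaks scored 5.71, 9.61, 8.75 and 11.86, with gaps of 6643, 2074 and 4542 bp, and another peak followed at 12546 bp. On chromosome 11, between 46202797 and 46218831, they scored 10.12, 6.00, 7.99 and 9.08, with gaps of 6229, 2511 and 5545 bp. A peak lay 15801 bp before this run. Both runs therefore had a further peak not far beyond the limit, as did the run of 5 on chromosome 11, with a peak 11413 bp before it.

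The run of 4 on chromosome 2 between 98502342 and 98507577 was unlike the others in shape. Its intervals measured 982, 695, 621 and 1358 bp, its gaps only 295, 586 and 699 bp, and its scores 5.76, 8.65, 9.67 and 4.79. Peaks covered 69.8% of its 5236 bp. Broad intervals with short gaps also occurred on chromosome 13, where neighbours of 1303 and 967 bp at 74665877 to 74668218 were 72 bp apart with scores of 5.92 and 8.46, and on chromosome 15, where an interval of 1126 bp at 74916384 to 74917509 scored 5.06. These 3 places held the 5 widest crowded peaks. The signal of the control serum at these places was not analysed here.

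**Figure D2:**
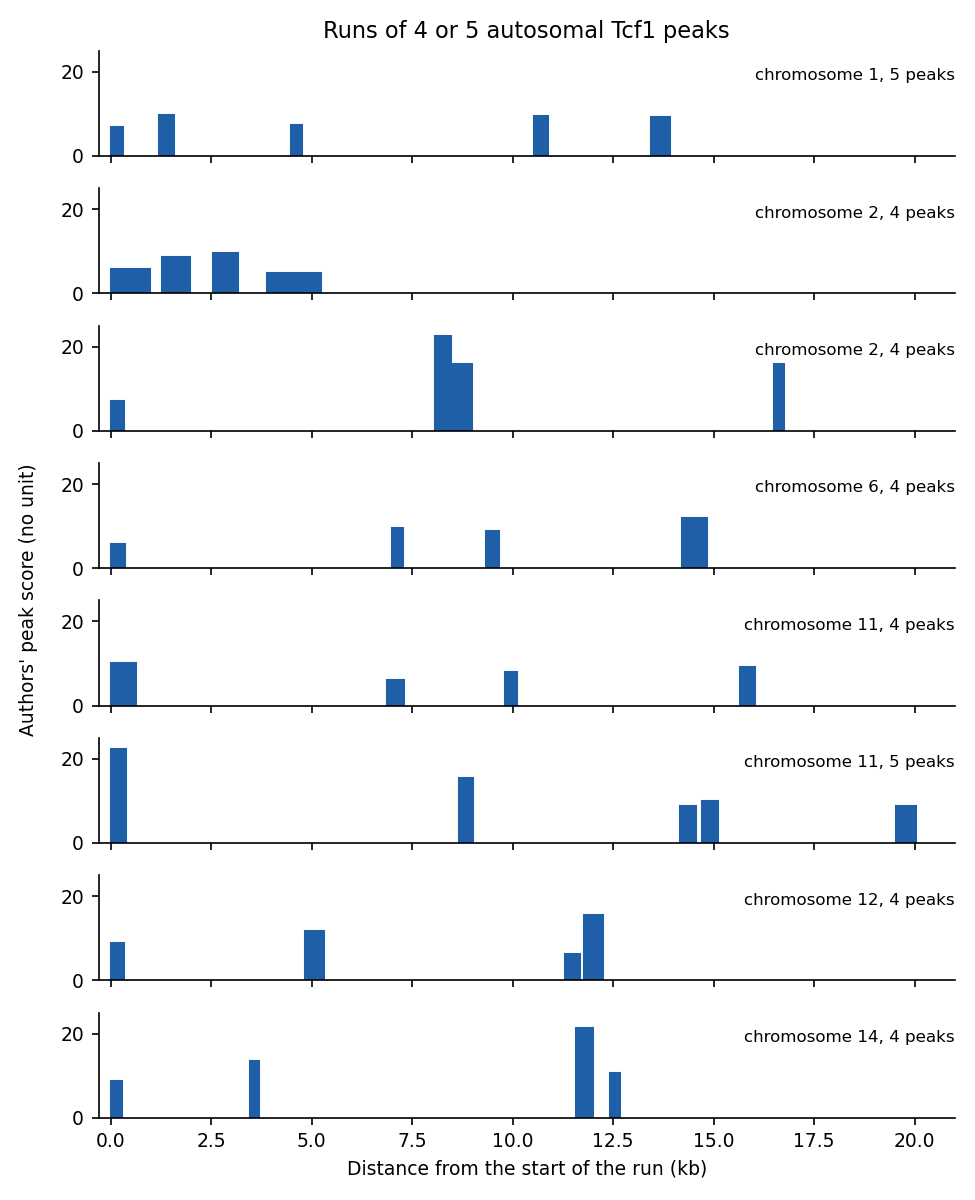
The 8 runs of 4 or 5 peaks, with distance from the start of the run in kb on the horizontal axis and the authors' score on the vertical axis; each bar is 1 peak drawn to its width. The run of 5 on chromosome 11 reaches 22.28, and the first of the chromosome 2 panels shows broad intervals of 621 to 1358 bp.

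Runs of 3 were found on 11 of the autosomes and showed the same variety. The most uneven was on chromosome 11 from 52123091 to 52132324, where the middle peak of 901 bp scored 27.88 and its neighbours 8.41 and 5.73, a ratio of 4.87 between highest and lowest. On chromosome 13, from 113208066 to 113218029, scores ran from 7.19 to 25.08. The most even was on chromosome 9 from 123715373 to 123723842, with scores of 13.85 to 16.57, a ratio of 1.20. The highest score was at the middle peak in 10 of the 21 runs of 3 and at an end in 11. In runs of 3 or more, the 39 inner peaks had a median score of 11.23 (95% interval 9.61 to 13.85) and the 57 outer peaks one of 9.92 (8.98 to 11.95), and these intervals overlapped.

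A few crowded peaks lay at the start of the assembled chromosomes. Within the first 4 Mb there were 7 of them (1.81% of the crowded peaks), against 22 of the other autosomal peaks (0.965%), and the intervals of the shares overlapped. They formed a run of 3 on chromosome 18 from 3004174 to 3006011, with scores of 7.40, 9.24 and 5.93, a pair on chromosome 4 from 3017200 to 3018446, with scores of 4.45 and 7.23, and a pair on chromosome 16 from 3114569 to 3116751, with scores of 7.41 and 7.07. All 3 runs included the first peak of their chromosome, and each of their 7 scores was below 10.74, the median of the crowded peaks.

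Crowded peaks had a larger median width than the others. It was 332 bp (95% interval 313 to 346 bp), with the middle 50% from 258 to 422.5 bp. The other autosomal peaks had a median of 270.5 bp (264 to 276 bp), with the middle 50% from 215 to 358 bp. The intervals of the medians did not overlap, while the 2 ranges of widths did so largely. With the median of each run in place of its single peaks, the value was 337 bp over 174 runs. Pairs alone, the shortest runs, had a median of 316 bp (299 to 334 bp), also above the interval of the other peaks. Among the 19 autosomes, the crowded median exceeded the other median on 16, equalled it on chromosome 16 at 264 bp, and was lower on chromosomes 6 and 10, by 291 against 294.5 bp and 287.5 against 288 bp.

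The difference in width was present among narrow peaks as well as among those over 500 bp, but not at the extreme upper end. Peaks of up to 200 bp made up 29 of the crowded peaks (7.49%, 95% exact Clopper-Pearson interval 5.08 to 10.6%) and 383 of the others (16.8%, 15.3 to 18.4%). Peaks over 500 bp made up 56 crowded peaks (14.5%, 11.1 to 18.4%) and 120 of the others (5.26%, 4.38 to 6.26%). Intervals over 1000 bp were few in both, 3 crowded (0.775%, 0.16 to 2.25%) and 8 others (0.351%, 0.152 to 0.69%), with overlapping intervals. The widest crowded peak measured 1358 bp and the widest of the others 6120 bp. The median width was 316 bp in pairs (95% interval 299 to 334 bp) and 355 bp in runs of 3 (318 to 397 bp). In runs of 4 or 5 it was 377 bp (337 to 460 bp). The interval of runs of 3 overlapped both others, while those of pairs and of runs of 4 or 5 narrowly did not. The last class held 34 peaks from only 6 runs of 4 and 2 of 5, with members of a run counted as independent. Its peaks included the run on chromosome 2 from 98502342 to 98507577, with widths of 621 to 1358 bp. A rise in width between successive sizes of run was therefore not settled.

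Width changed gradually with distance, with no step at 10 kb larger than the intervals of the medians. The median was 327.5 bp for peaks with a neighbour at 200 bp or less, 331 bp from 0.2 to 1 kb, 342 bp from 1 to 5 kb and 320 bp from 5 to 10 kb. Just beyond the limit it was 304 bp from 10 to 20 kb and 318 bp from 20 to 50 kb, with intervals (281 to 328 and 301 to 337 bp) that overlapped those inside. It was 288.5 bp (275 to 298 bp) from 50 to 200 kb and 243 bp (237 to 253 bp) for the 1202 peaks more than 200 kb from any other. The difference in width between crowded and other peaks was thus largest against the most isolated peaks. Members whose nearest neighbour was over 1 kb away had the same median, 332 bp, so the difference was as large without the near-touching neighbours.

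**Figure D3:**
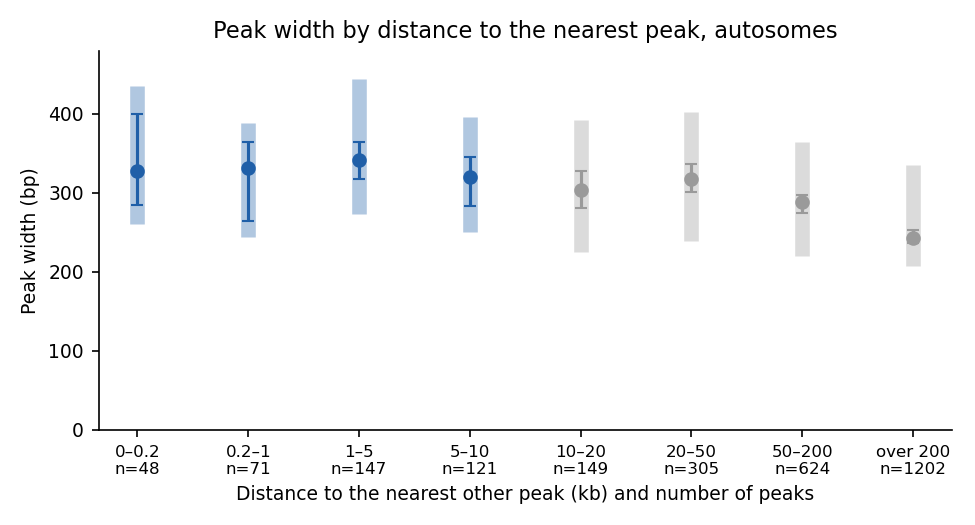
Width of autosomal Tcf1 peaks by distance to the nearest other peak in kb; points are medians with their 95% intervals and broad bars the middle 50%, in blue for crowded peaks and grey for the others. The medians go from 342 bp at 1 to 5 kb to 243 bp beyond 200 kb.

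In score, crowded and other peaks were close. The score is the authors' own value for each peak, of unstated meaning, and no peak was put in or left out of the crowded group by it. The median was 10.74 for crowded peaks (95% interval 10.17 to 11.11) and 11.21 for the others (11.07 to 11.21), and the upper quartile was 13.45 in both. Scores of at least 20 belonged to 22 crowded peaks (5.68%, 95% exact interval 3.60 to 8.48%) and to 78 others (3.42%, 2.71 to 4.25%), with overlapping intervals. Scores under 6 were held by 4.39% of crowded and 4.96% of other peaks.

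The one clear contrast in score was at values that recur in the list. The 3 commonest scores, 11.21, 13.45 and 15.69, were chosen after the scores were seen. They were carried by 17 crowded peaks (4.39%, 95% exact interval 2.58 to 6.94%) and by 367 others (16.1%, 14.6 to 17.7%). The share was 20.5% among peaks more than 200 kb from another, 12.1% between 10 and 20 kb and 4.96% between 5 and 10 kb. Peaks with these scores were narrow whether crowded (median 218 bp, n = 17) or not (median 216 bp, n = 367). Without them, the median width was 336.5 bp for the crowded peaks (95% interval 324 to 354 bp) and 296 bp for the others (289 to 302 bp), so the gap in width shrank and the intervals still did not overlap. Likewise the order of the median scores turned, to 10.58 for crowded and 10.49 for other peaks.

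Within 4 classes of score, divided at the quartiles of all autosomal peaks, the crowded peaks again had the larger medians. At scores up to 8.74, the median width was 365 bp for crowded peaks (95% interval 334 to 396 bp) and 320 bp for others (302 to 333 bp). Over 8.74 and up to 11.21 it was 299.5 against 245.5 bp, and over 11.21 and up to 13.45 it was 299 against 239 bp. Over 13.45 it was 359 bp (325 to 394 bp) against 298 bp (285 to 308 bp). The intervals did not overlap in any of the 4 classes, though at scores up to 8.74 only narrowly. The classes did not even out the commonest scores, whose peaks were narrow. The score 11.21, in the second class, was carried by 9 crowded and 142 other peaks. In the third class, 13.45 was carried by 4 and 156, and in the fourth, 15.69 by 4 and 69.

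The 10 crowded peaks with the highest scores are given with their neighbours, which score lower in each case, as the choice of the highest peaks favours. Chromosome 1 carried the highest, which scored 35.59 at 43937228 to 43937613, and its partner 7654 bp away scored 17.01. The second, on chromosome 2 at 156944766 to 156945258, scored 30.47 and had a partner of 20.07 at 2173 bp. A peak on chromosome 13 at 102483722 to 102484125 scored 24.75 beside one of 11.02 at 2131 bp, and another on that chromosome, at 107849550 to 107849957, scored 24.34 beside one of 12.24. On chromosome 3, the peak at 95844505 to 95844829 scored 23.95 beside 11.66, on chromosome 2 that at 6628283 to 6628730 scored 23.58 beside 10.08, and on chromosome 12 that at 100567370 to 100567828 scored 22.85 beside 10.58. The remaining members of the top 10 were those on chromosomes 11, 17 and 13 with scores of 27.88, 25.70 and 25.08 given above. None of the 10 had a second peak of the top 10 in its run.

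Neighbours differed in score by about as much as peaks further apart. The median difference in score was 3.25 between the 213 neighbours in runs and also 3.25 between the 2435 successive autosomal peaks over 10 kb apart. A ratio of 2 or more between the scores was seen for 32 neighbours (15.0%) and for 331 of the more distant peaks (13.6%). Across neighbours, Spearman's rho was 0.12 for score and 0.26 for width, and across the more distant peaks 0.06 and 0.11. All of these points share 1 library, and the correlations are weak. Widths differed by a ratio of 2 or more in 11.3% of neighbours and in 16.3% of the more distant peaks. In the 145 pairs, the peak with the higher score was the wider in 72 and the narrower in 73, and it was the first along the chromosome in 71 and the second in 74.

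Crowded peaks were found on each of the 19 autosomes, at uneven shares. The share of peaks that were crowded had a median of 13.3% over the autosomes. It was highest on chromosome 9, with 37 of 172 peaks (21.5%, 95% exact interval 15.6 to 28.4%), and on chromosome 1, with 42 of 203 (20.7%, 15.3 to 26.9%). Chromosome 11 followed with 29 of 156 (18.6%) and chromosome 2 with 37 of 207 (17.9%). These 4 chromosomes held 145 of the crowded peaks (37.5%) and 26.0% of the other autosomal peaks. They were picked for their high crowded shares, so the direction of this difference was fixed by the choice.

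The lowest share was on chromosome 5, with 15 of 173 peaks (8.67%, 4.93 to 13.9%). It had about as many peaks as chromosome 9, with a density of 1.16 against 1.43 per Mb from the first to the last peak. On chromosomes 1, 11 and 2, which followed chromosome 9 in share, the density was 1.1, 1.34 and 1.16 per Mb. Chromosome 8 had 11 of 116 (9.48%). The intervals of chromosomes 1 and 9 lay above the autosomal share of 14.5% and that of chromosome 5 below it, while the other 16 included it. These 3 are the extremes of 19, and peaks of 1 run are not independent, which makes the intervals too narrow. With each run counted as 1 place, chromosome 9 still had the highest share of places that were runs (16 of 151, 10.6%) and chromosome 5 the lowest (7 of 165, 4.24%). The order depended on the limit: at 5 kb the highest share was on chromosome 2 (14.98%) and the lowest on chromosome 19 (5.19%), and at 20 kb the highest was on chromosome 1 (27.59%). The density of peaks followed the share only loosely: over the 19 autosomes of this 1 list, Spearman's rho between peaks per Mb, counted from the first to the last peak, and the crowded share was 0.21 and Pearson's r was 0.43.

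**Figure D4:**
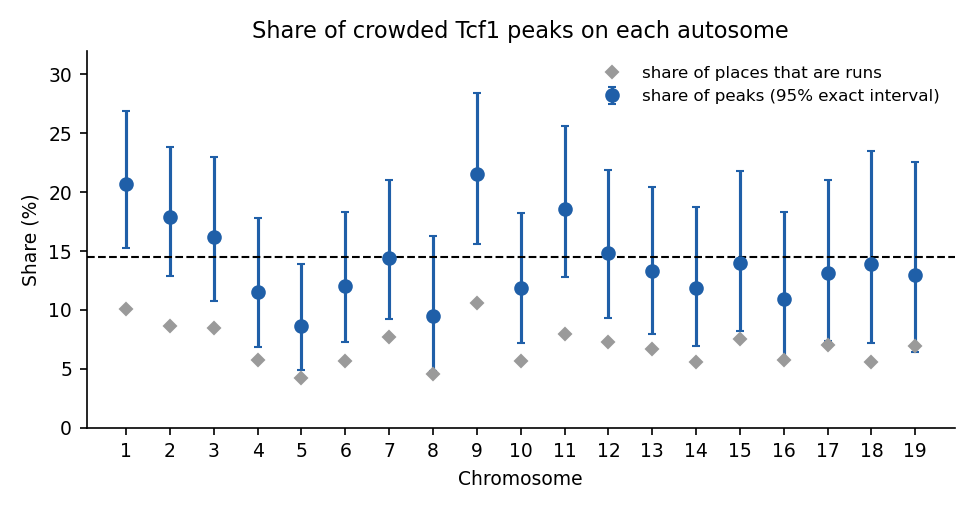
Share of peaks on each autosome that were crowded, in percent with 95% exact intervals (blue), and share of places that were runs when each run counts once (grey). The dashed line is the share of peaks that were crowded over all autosomes, 14.5%. It applies to the blue points only. Chromosomes 9 and 1 are highest, at 21.5% and 20.7%, and chromosome 5 lowest, at 8.67%.

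Runs of 3 or more were few on any 1 autosome. Chromosome 9, with 172 peaks in all, held 5 of the 29. Chromosomes 1 and 11, with 203 and 156 peaks, had 4 each, and chromosomes 2 and 18, with 207 and 79, had 3 each. Counts this small vary by counting alone, and a difference between autosomes was not tested. On chromosome 18 these 3 runs held most of the 11 crowded peaks. Chromosomes 7, 15, 16, 17 and 19, with 153, 114, 110, 107 and 77 peaks, had none. The 11 runs of chromosome 7, its 22 crowded peaks, were all pairs. On chromosomes 6, 12 and 14 the only run longer than a pair was a run of 4.

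Beyond their own members, runs had other Tcf1 peaks nearby somewhat more often than single peaks did. Another peak lay within 100 kb of 73 of the 174 runs (42.0%) and of 717 of the 2280 single peaks (31.4%). For runs of 3 or more it was 16 of 29 (55.2%). The median distance to the nearest peak outside the run, on either side, was 147.6 kb (95% interval 107 to 232.8 kb). For single peaks it was 223.6 kb (204.6 to 243.2 kb), and these intervals overlapped. Within 500 kb the shares were 75.9% for runs and 71.6% for single peaks.

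A few runs lay beside other runs. Of the 174 runs, 35 had another run within 1000 kb and 14 had one within 100 kb. The median distance to the nearest other run was 4.91 Mb. Chromosome 9 contributed 3 of the 7 closest pairings. There a run of 3 at 63567613 to 63572795 was followed after 12.4 kb by a pair ending at 63588663, and a run of 3 at 61516644 to 61527851 after 17.9 kb by a pair ending at 61556140. Runs of 3 at 123663489 to 123670318 and 123715373 to 123723842 lay 45.1 kb apart. On chromosome 1, a run of 3 at 163696792 to 163709661 was followed after 19.4 kb by a pair, and on chromosome 3, pairs beginning at 130856849 and 130910641 were 49.9 kb apart. The last pairings were on chromosome 6, with 87.6 kb between pairs, and on chromosome 12, where the run of 4 had a pair 92.8 kb after it.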

How the data were processed

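The authors deposited 1 list of peaks in bedGraph layout with a score per peak, and its track line calls them strong peaks, per the file headers. The build mm9 and the tools MACS 1.4.1, Bowtie 0.12.5 and CASAVA 1.8 are named, without their roles, per the submitters' processing notes. The threshold of the list, the scale of the score, the treatment of duplicate and multiply mapped reads and the use of the control library are not given in the sources used here. A caller that divides or joins nearby signal differently would change which peaks count as crowded. Peaks were called on 1 Tcf1 library, not pooled.

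Positions are counted from 1. Distances are edge to edge, and no peak overlapped or repeated another. Intervals of medians come from binomial order statistics and those of shares are exact Clopper-Pearson intervals, at 95%. Named regions are all runs of 4 or more, the 10 highest scores, the 10 shortest gaps, the 5 widest crowded peaks, 3 peaks on each side of 10 kb and the autosomes with extreme shares. Any other place was named with its values already known. The crowded peaks and these rules were chosen with earlier results of these data known. Finding of runs was checked on simulated lists. Calculations ran in pandas 2.3.3 and SciPy 1.17.1 under Python 3.11.15 with NumPy 2.4.6, and plots in Matplotlib 3.10.9. Sequence motifs and genes were not analysed here, since the reference tables used were of another build.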

Additional observations from a re-analysis of the deposited data

How the results depend on the processing

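For 5 results, 27 alternatives were computed, and 22 of them stayed on the same side and within 1.5 times the count or within the interval of the value. For the spread over chromosomes only the size of the highest share was compared, not which chromosome held it. The limit of 20 kb was thus counted among the 22. The crowded peaks were the wider in all 9 alternatives for width, with medians of 324 to 350 bp; the highest, 350 bp against 252 bp for the others, came with peaks below the median score of the list left out. Only 93 crowded peaks were then found, since fewer peaks have fewer neighbours by construction. The highest share on an autosome was 10.6% with each run counted once, again on chromosome 9, and 14.98% with a limit of 5 kb, then on chromosome 2, while with 20 kb it was 27.59% on chromosome 1, so the order of the chromosomes depends on the limit. The median score turned from below to above that of the other peaks (10.58 against 10.49) without the 3 commonest scores. This alternative for score and 4 of those for width (nearest peak over 1 kb away, no commonest scores, merging, midpoints) were chosen after seeing the data. Those for motifs and genes were not run. No paired analysis was possible because each serum has 1 library. A place without a listed peak is not shown to lack Tcf1, because the list gives no reads.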
